A study of Mus musculus with 12 samples.

Results

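The genes encoding the glucocorticoid receptor, its mineralocorticoid relative, their chaperones and the enzymes that make or destroy their ligand were followed in sorted mouse intestinal stem cells (ISCs). The 10 genes, of 47729 in the deposited count table, were taken by name, namely Nr3c1, Nr3c2, Fkbp5, Fkbp4, Hsp90aa1, Hsp90ab1, Ptges3, Stip1, Hsd11b1 and Hsd11b2. All were present in the table, and 9 had counts in at least 1 library. RNA was sequenced from Lgr5-EGFP-hi cells of the small intestine in 12 libraries, 3 for each of 4 groups. Every mouse carried Lgr5-EGFP-IRES-CreERT2, in which green fluorescent protein is driven from the Lgr5 locus, a stem cell marker gene, and in only some crypts, and was 8 to 10 weeks old, of either sex. Untreated mice (Ctrl) were kept without food and water for as long as the restrained mice. The group labelled CRS was restrained for 3 h on 1 day, the Vehicle group was injected intraperitoneally with 20% sulfobutylether-β-cyclodextrin, and the CORT group was injected with 5 mg/kg corticosterone in that solution. Ctrl held libraries 1, 2 and 3, Vehicle held 3, 5 and 6, and CORT held 2, 4 and 5. Those of CRS were numbered 1+2, 3 and 4+5+6, which reads as several mice in the joined ones. The labels do not state that each library came from a separate mouse, so p-values measure the spread between these libraries.

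Glucocorticoids act through the glucocorticoid receptor (Nr3c1), a transcription factor that waits in the cytoplasm in a complex with Hsp90. Stip1 hands the receptor from Hsp70 to Hsp90, Ptges3 (p23) stabilizes the mature complex, and the immunophilins Fkbp5 and Fkbp4 compete for the same place on Hsp90. Fkbp5 lowers the affinity of the receptor for hormone, Fkbp4 favors transport to the nucleus, and Fkbp5 is itself a classical target of the receptor, which closes a negative feedback loop. Before the hormone reaches the receptor, Hsd11b1 regenerates active corticosterone and Hsd11b2 inactivates it, the latter shielding the mineralocorticoid receptor (Nr3c2) in aldosterone-responsive epithelia such as that of the colon.

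The bases upstream of the RefSeq gene start (GRCm38.p6) were read for the pair of immunophilins, because Fkbp5 and Fkbp4 serve the same complex and Fkbp5 passed the test in both treatments while Fkbp4 passed in neither. In Fkbp5 the 250 bases lay at chr17:28486150-28486399 on the minus strand and overlapped no annotated exon. In Fkbp4 the 229 bases that precede its own annotated exons lay at chr6:128438678-128438906, also on the minus strand, and overlapped 1 exon of the antisense gene Gm10069. Capitals mark the CCAAT box (read as ATTGG on the other strand) and, in Fkbp4, the heat shock element unit GAANNTTC.
Fkbp5: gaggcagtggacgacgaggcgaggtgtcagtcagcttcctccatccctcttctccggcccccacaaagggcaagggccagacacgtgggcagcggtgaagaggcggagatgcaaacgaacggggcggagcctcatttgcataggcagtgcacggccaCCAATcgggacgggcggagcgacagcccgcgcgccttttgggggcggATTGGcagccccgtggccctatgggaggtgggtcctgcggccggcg
Fkbp4: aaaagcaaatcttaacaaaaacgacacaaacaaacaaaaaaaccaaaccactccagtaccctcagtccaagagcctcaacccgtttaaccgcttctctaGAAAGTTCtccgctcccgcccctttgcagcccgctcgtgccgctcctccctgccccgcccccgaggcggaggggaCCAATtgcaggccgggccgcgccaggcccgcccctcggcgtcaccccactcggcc
Both strands were searched for the glucocorticoid response element (AGAACA and TGTTCT set 3 bases apart), for the hexamer TGTTCT alone, which the element contains, for GAANNTTC and for CCAAT. The Fkbp5 window held 2 CCAAT boxes, starting 93 and 46 bases before the start. It held no exact match to either form of the response element or to GAANNTTC. Inexact sites and sites outside the 250 bases were not searched, so a receptor site is not excluded. By chromatin immunoprecipitation and qPCR of crypts, the study reported that corticosterone raised NR3C1 binding at the Fkbp5 promoter. The Fkbp4 window held 1 GAANNTTC unit from 151 to 144 bases before the start and 1 CCAAT box. These positions count from the RefSeq start, which lies past the end of the Fkbp4 bases printed above. Windows of the same length were available for 6 of the 10 genes, adding Nr3c2, Ptges3, Stip1 and Hsd11b1. Stip1 held 4 CCAAT boxes, Nr3c2 held 3 and a GAANNTTC unit, Hsd11b1 held 1 CCAAT box and Ptges3 held no match. Of 32851 such windows, 33.8% held CCAAT, 6.69% GAANNTTC, 16.1% the hexamer and 0.00913% the whole element. In the deposited tables (mm10) all 10 are protein-coding genes. Nr3c2 lies at chr8:76899442-77245012, Hsp90aa1 at chr12:110690605-110702728 and Hsp90ab1 at chr17:45567775-45573271. Fkbp4 lies at chr6:128429735-128438677, Ptges3 at chr10:128058954-128077272, Stip1 at chr19:7020696-7040026, Hsd11b1 at chr1:193221634-193264075 and Hsd11b2 at chr8:105518746-105523984. The deposited span of Fkbp5, chr17:28399095-28517524, reaches upstream of the RefSeq start, so other starts of the gene were not covered by this window.

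The count totals were 15934907 to 17135770 in Ctrl and CRS, 16465961 to 31280267 in Vehicle and 29426183 to 69533214 in CORT, so that low values were most precise in CORT 2 and CORT 4. Levels are given as CPM, counts divided by library size and scaled with TMM factors over the 12 libraries. The ISC markers Lgr5 and Olfm4 were present in every library, at 130 to 245.6 CPM and 6844 to 10290 CPM. The ISC marker Ascl2 held 137.5 to 147 CPM in Ctrl and 53.4 to 68.6 in CRS, and 147.9 to 170 in Vehicle and 60.2 to 108 in CORT. Of the 6 ISC markers, 2 had positive changes in CRS and 1 in CORT. The median of the markers of blood and of stromal and endothelial cells did not exceed 0.315 CPM. The median of 6 enterocyte markers was 16.6 to 24 CPM in Ctrl, 51.7 to 283 in CRS, 12.8 to 18.0 in Vehicle and 6.48 to 18.8 in CORT, and 5 of the 6 were higher in CRS than in Ctrl (edgeR adjusted p under 0.05). All 6 had counts in every library, and their summed level was 178 to 200.7 CPM in Ctrl, 320.4 to 1674 in CRS, 136.1 to 188.8 in Vehicle and 127.1 to 194 in CORT. The median of 6 Paneth markers was 21.8 to 25.7 CPM in Ctrl, 29.7 to 37.9 in CRS, 25 to 27.6 in Vehicle and 15.4 to 19.4 in CORT, with summed levels of 135.1 to 172.5, 167.7 to 261.2, 184.6 to 212.8 and 104.7 to 117.5 CPM. With edgeR 1 of the 6 was higher in CRS and 4 lower in CORT. Of 6 ISC markers, 1 was lower in CRS and 3 in CORT, where their median was 441 to 520 CPM against 530 to 581 in Vehicle and their summed level was 11030 to 12320 CPM against 10620 to 11090. Most of that sum was Olfm4, with means of 8296 CPM in CORT and 7370 CPM in Vehicle. Of 6 goblet markers 1 was higher in CRS and none passed in CORT (edgeR, 0 under 0.05 before adjustment, none with DESeq2). The goblet median was 49.6 to 69.2 CPM in Ctrl and 46 to 92.5 in CRS. It was 40.7 to 67.2 CPM in Vehicle and 37.8 to 65.9 in CORT. The summed goblet level was 518.1 to 662.5 CPM in Ctrl and 497.9 to 1342 in CRS. Of all genes tested, 1.3% were higher and 0.59% lower in CRS, and 3.64% higher and 4.5% lower in CORT.

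In untreated ISCs the 5 chaperone genes stood above both receptors. On the length-corrected FPKM scale, Hsp90ab1 stood at 1369 ± 11 (SD, n = 3), rank 61 of 47729 genes. Fkbp4 followed at 291 ± 3.84 FPKM and Hsp90aa1, the stress-inducible Hsp90 isoform, at 172 ± 8.43 FPKM. Ptges3 reached 95.9 ± 1.22 FPKM and Stip1 72.9 ± 2.13 FPKM. Nr3c1 was at 24.8 ± 1.53 FPKM, rank 3192, and Fkbp5 at 16.2 ± 1.11 FPKM, rank 4609. Hsd11b2 and Nr3c2 were low, at 4.68 ± 0.872 and 3.21 ± 0.742 FPKM. The Ctrl ranges of every pair of neighbors in this order were separate, and Hsd11b1 was listed at 0 in all Ctrl libraries. Within a library Nr3c1 exceeded Nr3c2 by 6.76 to 10.2 times in Ctrl, and Hsp90ab1 made up 88.5% to 89.4% of the summed FPKM of both Hsp90 genes.

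**Figure D1:**
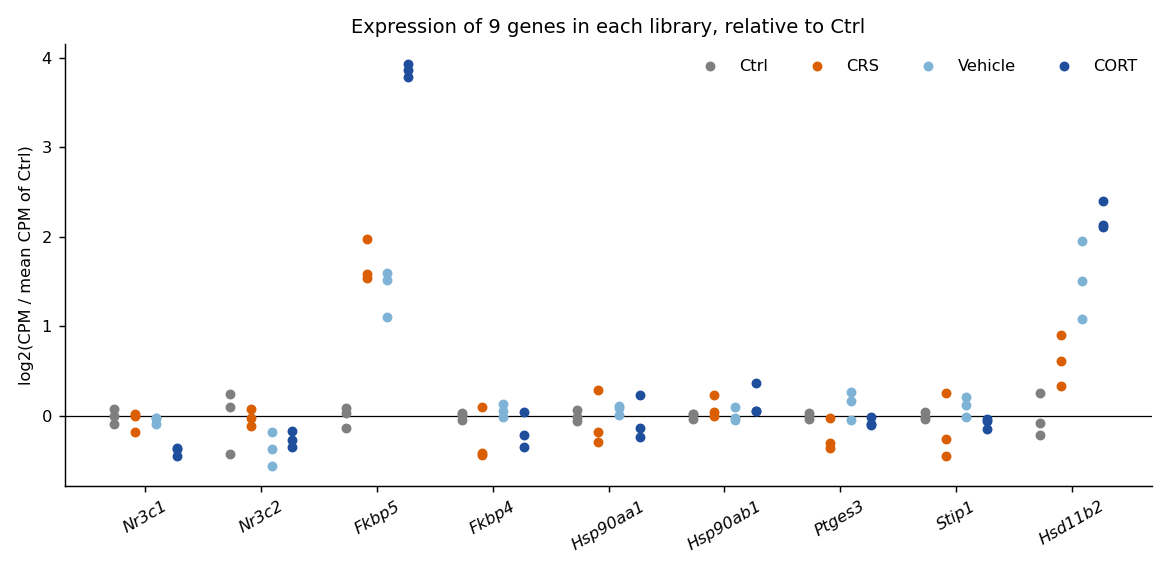
Each point is a library, plotted as the log2 ratio of its CPM to the mean CPM of Ctrl, for the 9 genes with counts and colored by group. Fkbp5 and Hsd11b2 spread upward from Ctrl through CRS and Vehicle to CORT, and the CORT libraries of Nr3c1 lie together below 0. Some libraries of other genes, among them Nr3c2, Fkbp4 and Stip1, reach as far below it.

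Fkbp5 was the member with the largest change in either treatment. Its level was 67.8, 65.1 and 57.9 CPM in Ctrl 1, 2 and 3 and rose to 185, 191 and 251 CPM in CRS 1+2, 3 and 4+5+6, with no overlap. The change was 3.29-fold (log2 1.72, SE 0.128, edgeR adjusted p = 0.000148), the eighth smallest p of 13722 genes tested, and in these bulk libraries a change in RNA per cell and a change in the makeup of the sorted cells cannot be told apart. The enterocyte markers rose in CRS too, and CRS 4+5+6, with the highest Fkbp5, also had the highest enterocyte marker median (283 CPM). The other CRS libraries had the opposite order. CRS 3, with a median of 51.7 CPM, held more Fkbp5 than CRS 1+2, with 121 CPM. The part of the enterocyte markers in the result was not tested.

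Fkbp5 was higher still after corticosterone. The Vehicle libraries 3, 5 and 6 held 137, 182 and 193 CPM, and the CORT libraries 2, 4 and 5 held 879, 971 and 931 CPM. Every CORT library thus lay above every library of the other groups. The rise over Vehicle was 5.35-fold (log2 2.42, SE 0.129, edgeR adjusted p = 3.95e-05), the fourth smallest p of 14656 genes. The enterocyte marker medians of these groups overlapped. In CORT 4 of 6 Paneth and 3 of 6 ISC markers were lower (edgeR adjusted p under 0.05), beside 4.5% of all genes. The part of these markers in the result was not tested. The CORT libraries were also deeper than Vehicle 3 and 5, and with every library thinned to the smallest total the change was 2.43 (edgeR adjusted p = 6.31e-06).

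The control groups themselves differed. Fkbp5 was 2.68-fold higher in Vehicle than in Ctrl (log2 1.42, SE 0.121, edgeR adjusted p = 4e-04), and the Vehicle libraries overlapped those of CRS. The injection, its solvent and the withholding of food and water cannot be told apart here. Because CRS was set against Ctrl and CORT against Vehicle, the folds start from different levels. Relative to the Ctrl mean, Fkbp5 stood at 3.28 times in CRS, 2.68 times in Vehicle and 14.6 times in CORT. Tested as an interaction over the 12 libraries, the CRS effect was smaller than the CORT effect by 0.71 on the log2 scale (SE 0.187), which did not pass edgeR's quasi-likelihood test (adjusted p = 0.114) but did pass DESeq2 (adjusted p = 0.0155).

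**Figure D2:**
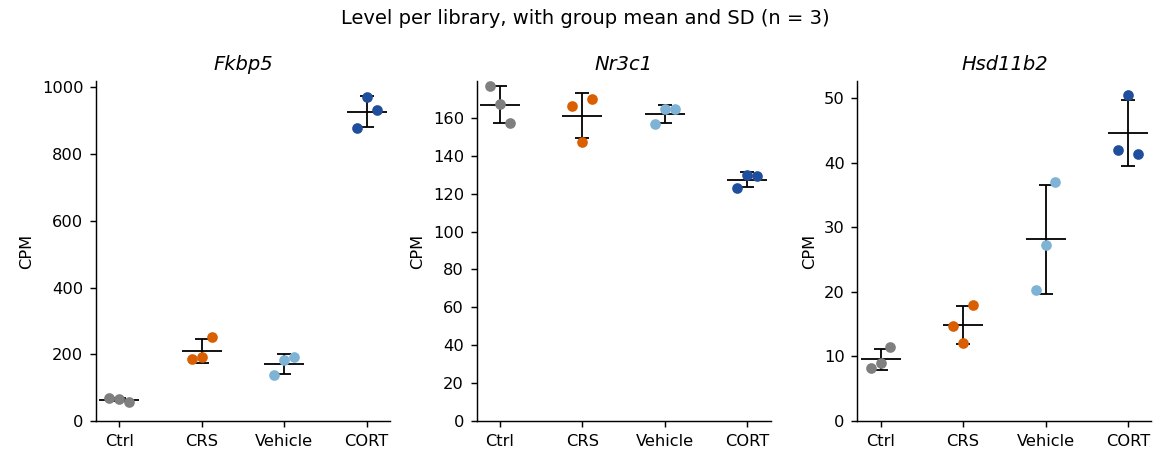
Points show the CPM of Fkbp5, Nr3c1 and Hsd11b2 in each library by group, and bars show the mean and SD of 3 libraries on axes that start at 0. Fkbp5 reaches 879 to 971 CPM in CORT, Nr3c1 drops to 123 to 130 CPM there, and Hsd11b2 ranges from 8.26 CPM in Ctrl to 50.5 CPM in CORT.

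Measured against Fkbp4 within the same library, Fkbp5 was the minor immunophilin in Ctrl and near parity in CORT. It made up 4.96% to 5.59% of the summed FPKM of both immunophilins in Ctrl, 13.5% to 22.9% in CRS, 10.9% to 13.4% in Vehicle and 42.9% to 52.0% in CORT. In CORT 4 the Fkbp5 level exceeded that of Fkbp4, with a ratio of 1.08. The log2 ratio rose by 1.95 from Ctrl to CRS and by 2.69 from Vehicle to CORT, with no overlap in either, and each two-sided exact permutation test gave p = 0.1, the smallest that 3 against 3 libraries allow.

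**Figure D3:**
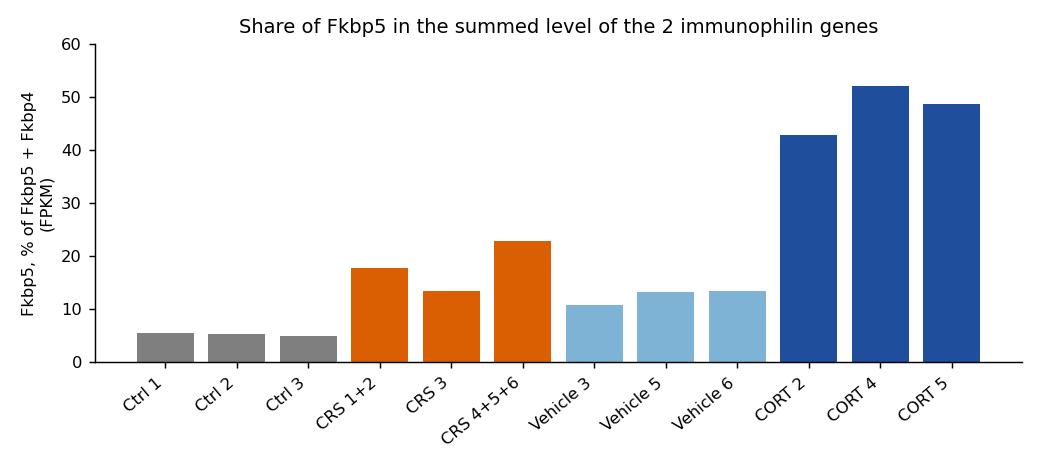
Bars give Fkbp5 as a percent of the summed FPKM of Fkbp5 and Fkbp4 in each library. The share is 4.96% to 5.59% in Ctrl and 42.9% to 52.0% in CORT, with CRS and Vehicle between them.

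The receptor gene Nr3c1 was lower in CORT than in Vehicle. It held 157, 165 and 165 CPM in Vehicle 3, 5 and 6 and 123, 130 and 130 CPM in CORT 2, 4 and 5, so that every CORT library lay below every other library. It fell to 0.774 of the Vehicle level (log2 -0.37, SE 0.0687, edgeR adjusted p = 0.012), a change below 2-fold. Without CORT 4 the adjusted p was 0.0521, with a log2 change of -0.38. Between Ctrl, at 177, 167 and 157 CPM, and CRS, at 166, 148 and 170 CPM, the groups overlapped (log2 -0.05, SE 0.0898, edgeR adjusted p = 0.865). The difference of the effects, 0.32 on the log2 scale (SE 0.105), did not pass (edgeR adjusted p = 0.211), so the response of Nr3c1 is not shown to differ between restraint and corticosterone. Lower in CORT, too, were 3 of 6 ISC markers and 4 of 6 Paneth markers, beside 4.5% of all genes. Lgr5 was among them, at 130 to 160.9 CPM against 192.8 to 209.0 CPM in Vehicle. Olfm4, the 1 ISC marker with a positive change, was at 7787 to 9253 CPM against 6844 to 7691 CPM. The summed ISC marker level was 11030 to 12320 CPM in CORT and 10620 to 11090 CPM in Vehicle. Most of that sum was Olfm4, with means of 8296 CPM in CORT and 7370 CPM in Vehicle, so it says little of the other markers. The part of these markers in the fall of Nr3c1 was not tested.

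Nr3c2, the mineralocorticoid receptor, was far less abundant per length. It held 15.2 to 24.1 CPM in Ctrl, 18.9 to 21.6 in CRS, 13.8 to 18.1 in Vehicle and 16.0 to 18.1 in CORT. All 4 ranges overlapped at least 1 other, and no comparison passed (edgeR adjusted p = 0.986 for CRS, 0.807 for CORT and 0.543 for Vehicle against Ctrl). The ratio of Nr3c1 to Nr3c2 was 8.53 to 10.5 in Vehicle and 6.38 to 7.74 in CORT, without overlap (log2 difference -0.44, exact permutation p = 0.1).

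None of the 5 chaperone genes passed edgeR's test in either treatment, where 1.89% of all genes passed in CRS and 8.13% in CORT. Before adjustment, 0 of the 5 were under 0.05 in CRS and 3 in CORT (Fkbp4, Ptges3 and Stip1), and none passed with DESeq2. In CRS their libraries went apart from each other. Fkbp4 held 714, 730 and 692 CPM in Ctrl 1, 2 and 3, and 534, 761 and 526 CPM in CRS 1+2, 3 and 4+5+6. The SD grew from 18.9 to 133 CPM, and the change was -0.23 on the log2 scale (SE 0.132, edgeR adjusted p = 0.471). Hsp90aa1 (549, 759 and 509 CPM in CRS), Ptges3 (171, 207 and 164 CPM) and Stip1 (147, 208 and 129 CPM) had the same order, with CRS 3 on top. Hsp90ab1, at 3878, 4422 and 3759 CPM in CRS against 3663 to 3807 CPM in Ctrl, was also highest in CRS 3. Without CRS 3, Fkbp4 fell by 0.42 (edgeR adjusted p = 0.00492) and Ptges3 fell by 0.33 (adjusted p = 0.0381) on the log2 scale, and the members called numbered 3 instead of 1, while the share of all genes called in that fit was 5.98%.

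The order of the CRS libraries was the reverse of that of the enterocyte markers. Their median was 51.7 CPM in CRS 3, where the median log2 ratio of the 5 chaperones to Ctrl was 0.24. It was 121 CPM in CRS 1+2, with a chaperone median of -0.25, and 283 CPM in CRS 4+5+6, with -0.36. Among the other 9 libraries, the chaperone median stayed between -0.14 and 0.12 and the enterocyte marker median between 6.48 and 24 CPM. Goblet and Paneth marker medians had the same order as the enterocyte markers in CRS. In CRS 3, 1+2 and 4+5+6 they were 46, 73.5 and 92.5 CPM (goblet) and 29.7, 36.8 and 37.9 CPM (Paneth). The part of the enterocyte, goblet and Paneth markers in the chaperone values was not tested.

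**Figure D4:**
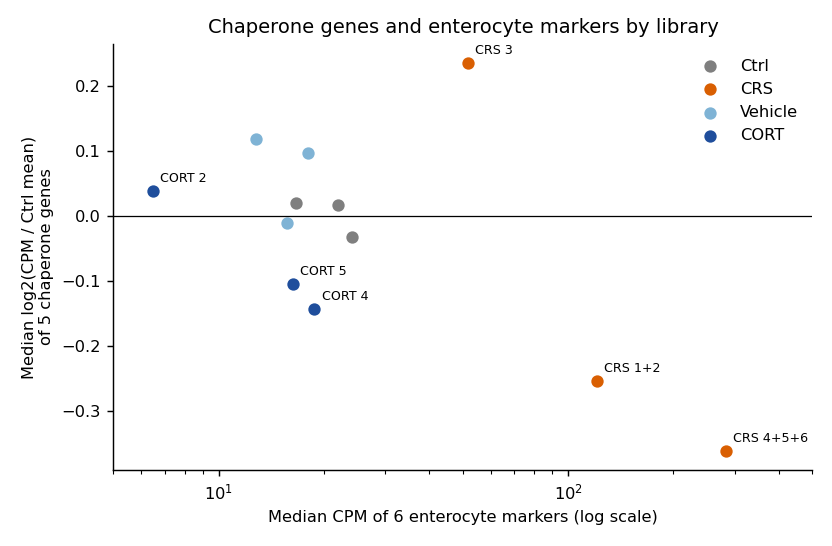
Each point is a library, placed by the median CPM of 6 enterocyte markers (log axis) and by the median log2 ratio of Fkbp4, Hsp90aa1, Hsp90ab1, Ptges3 and Stip1 to their Ctrl means. The 3 CRS libraries have the highest marker medians, with chaperone medians of 0.24, -0.25 and -0.36, and the remaining libraries stay between -0.14 and 0.12.

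In CORT the library CORT 2 was highest for Fkbp4, Hsp90aa1, Hsp90ab1 and Ptges3. Stip1, at 174, 203 and 190 CPM in Vehicle and 169, 159 and 171 CPM in CORT, was the chaperone whose groups did not overlap, and its change of -0.21 (SE 0.0812) did not pass (edgeR adjusted p = 0.161). Ptges3 had 204 to 253 CPM in Vehicle and 196 to 208 CPM in CORT (log2 -0.23, SE 0.0872, edgeR adjusted p = 0.158). Fkbp4 had 704 to 779 CPM in Vehicle and 559 to 731 CPM in CORT (log2 -0.24, SE 0.106, edgeR adjusted p = 0.205). The cytosolic Hsp90 genes were closer to no change, with log2 values of -0.13 (SE 0.118) for Hsp90aa1 and 0.13 (SE 0.107) for Hsp90ab1. The ratio of Hsp90aa1 to Hsp90ab1 was 0.127 to 0.135 in Vehicle and 0.103 to 0.114 in CORT, apart by -0.26 on the log2 scale (exact permutation p = 0.1). Vehicle and Ctrl differed by at most 0.13 on the log2 scale in these 5 genes, none of which passed edgeR (0 under 0.05 before adjustment) or DESeq2.

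The gene of the hormone-inactivating enzyme, Hsd11b2, was lowest in Ctrl and highest in CORT. Its level was 8.26, 9.04 and 11.4 CPM in Ctrl 1, 2 and 3, and 20.2, 27.2 and 37.0 CPM in Vehicle 3, 5 and 6. The groups were apart, and Vehicle was 2.94-fold higher than Ctrl (log2 1.56, SE 0.221, edgeR adjusted p = 0.0102). Without Ctrl 1 the adjusted p was 0.0858 and without Ctrl 2 it was 0.0527. In CORT 2, 4 and 5 it was higher still, at 42.0, 50.5 and 41.3 CPM, and did not overlap Vehicle. That rise of 1.56-fold (log2 0.64, SE 0.19) did not pass edgeR's test (adjusted p = 0.0762), whereas it passed DESeq2 (adjusted p = 0.00437) and passed edgeR without Vehicle 6 (log2 0.89, adjusted p = 0.0222). In CRS it was 14.7, 12.1 and 17.9 CPM, above every Ctrl library, with a change that did not pass (log2 0.64, SE 0.214, edgeR adjusted p = 0.183). The CRS and CORT effects differed by -0.0036 on the log2 scale (SE 0.309).

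Hsd11b1, the regenerating enzyme, had 0 counts in all 12 libraries. A floor of 3 read pairs, or 12 counts, corresponds to 0.182 CPM in the deepest library and 0.740 CPM in the shallowest, for counting error only. The gene could not be tested, and its ratio to Hsd11b2 was not formed. Lamb3, on the opposite strand, spans the gene and had a mean of 1300 counts per library.

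Across the 9 genes tested, Fkbp5 alone passed an adjusted p of 0.05 in CRS against Ctrl, where 1.89% of 13722 genes passed, and it also exceeded 2-fold (0.751% of genes). The groups did not overlap for 2, Fkbp5 and Hsd11b2, against 20.4% of all genes. In CORT against Vehicle Fkbp5 and Nr3c1 passed, against 8.13% of 14656 genes, only Fkbp5 exceeded 2-fold (1.87% of genes), and the groups did not overlap for 4, adding Stip1 and Hsd11b2 (28.7% of genes). In Vehicle against Ctrl Fkbp5 and Hsd11b2 passed, both over 2-fold, against 0.799% of 13642 genes for the test alone and 0.359% with the fold, and the groups did not overlap for these 2 (16.2% of genes). The median log2 change of the 9 was -0.03 in CRS, -0.13 in CORT and 0.07 in Vehicle, against -0.0028, 0.01 and 0.0019 over all genes tested. No member passed the interaction with edgeR, where 0.388% of 14415 genes did. Fkbp5 and Nr3c1 were under 0.05 there before adjustment, and Fkbp5 passed with DESeq2.

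**Figure D5:**
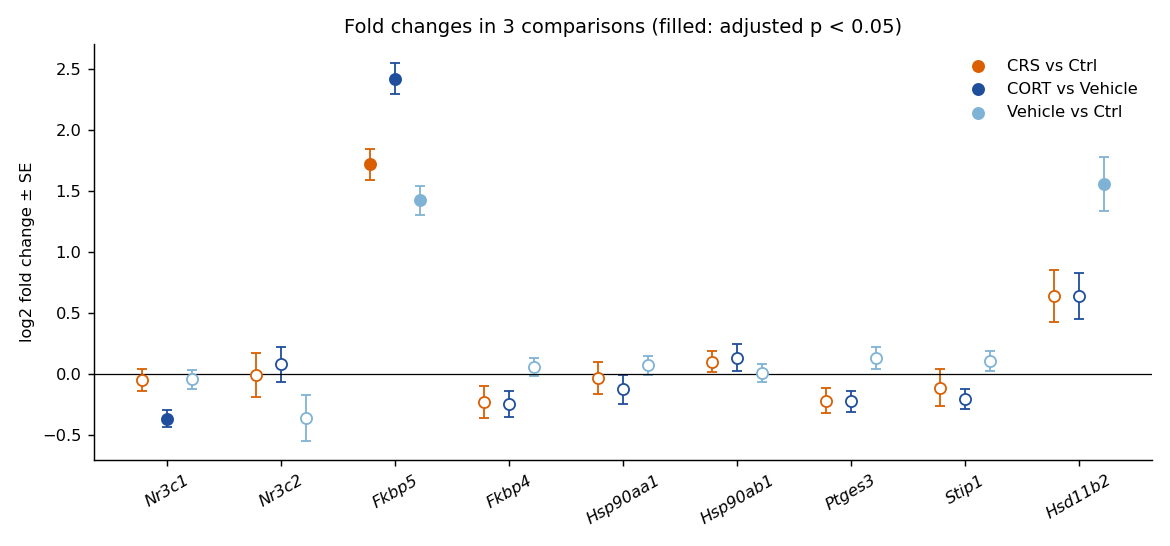
Points give the log2 fold change with its SE from edgeR for 9 genes in CRS against Ctrl, CORT against Vehicle and Vehicle against Ctrl, filled where the adjusted p was under 0.05. Fkbp5 is filled in all 3 (1.72, 2.42 and 1.42), Nr3c1 in CORT (-0.37) and Hsd11b2 in Vehicle (1.56).

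The wider Hsp70 and Hsp90 machinery was described from 24 further co-chaperone genes. In CRS none passed edgeR (2 under 0.05 before adjustment, 1 lower with DESeq2), with a median of -0.09. Under CORT 2 of 24 passed, both lower, beside 4.5% of all genes lower and 8.13% called, with a median of -0.10. They were the Hsp70 co-chaperones Dnaja1, at 219 ± 15.3 CPM (n = 3) in Vehicle and 165 ± 12.0 CPM in CORT (log2 -0.43, SE 0.0855, edgeR adjusted p = 0.0153), and Dnajb1, at 62.0 ± 4.30 and 44.9 ± 4.82 CPM (log2 -0.49, SE 0.0996, edgeR adjusted p = 0.018). Exons of Smu1 overlap those of Dnaja1 on the opposite strand, so their counts may be mixed. Both calls were lost when any of Vehicle 5, CORT 2 or CORT 4 was left out, and that of Dnajb1 also without Vehicle 6. In CRS, 4 co-chaperones passed when CRS 3 was left out, where 5.98% of all genes passed.

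Of 15 heat-shock-inducible genes 13 could be tested. In CRS none passed edgeR (4 under 0.05 before adjustment, 1 lower with DESeq2) and the median was -0.22, while 4 passed without CRS 3 (5.98% of all genes). In CORT 5 of 13 were lower and none higher, beside 4.5% of all genes lower and 3.64% higher, with a median of -0.24 and Dnaja1 and Dnajb1 among the 5. Bag3, a co-chaperone of Hsp70 in selective autophagy, fell from 45.2 ± 0.896 to 31.9 ± 3.49 CPM (log2 -0.52, SE 0.104, edgeR adjusted p = 0.0158). The inducible Hsp70 genes Hspa1a and Hspa1b fell by 2.71 and 2.23 on the log2 scale (edgeR adjusted p = 0.0499 and 0.0103). They are near-identical copies at 2.14 ± 0.929 and 4.61 ± 1.92 CPM in Vehicle, so the split of counts between them is uncertain. In CORT they held 0.344 ± 0.249 and 1.02 ± 0.298 CPM. The lowest CORT value of Hspa1a, 0.0686 CPM, was below the floor of 12 counts (0.182 to 0.415 CPM in CORT), so the size of its fall is uncertain. Leaving out 1 library took the number called to between 0 and 5, with 2 without Vehicle 5 or CORT 2, 3 without Vehicle 6 and 0 without CORT 4, where 3.35% to 6.66% of all genes passed over the 6 omissions. The call of Hspa1a was lost in every omission but that of Vehicle 3, and with libraries thinned to the smallest total (-2.42, adjusted p = 0.0548).

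Of 22 listed targets of the receptor other than Fkbp5, 21 were tested. The list was chosen with earlier results of these data known, so its counts are descriptive and no independent test. In CRS 12 were higher and none lower with edgeR (16 under 0.05 before adjustment, 14 higher and none lower with DESeq2), with a median of 1.07, where 1.3% of all genes tested were higher and 0.59% lower. In CORT 17 were higher and 1 lower, with a median of 1.49, against 3.64% of all genes higher and 4.5% lower, the lower gene being Cebpb, a transcription factor, at -1.01 (edgeR adjusted p = 0.00232). The smallest adjusted p in CRS belonged to Angptl4, an inhibitor of lipoprotein lipase (log2 3.90, edgeR adjusted p = 3.98e-06), followed by the kinase gene Sgk1 (3.6), the mTORC1 inhibitor gene Ddit4 (1.88), Pdk4 (5.70), which restrains pyruvate oxidation, and Tsc22d3, encoding GILZ (1.54). In CORT it belonged to Tsc22d3 (2.27, edgeR adjusted p = 5.76e-05), followed by the transcription factor Klf9 (1.48), glutamine synthetase Glul (2.10), Pdk4 (4.10), Angptl4 (2.79) and Sgk1 (5.80).

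Between Vehicle and Ctrl the other targets went both ways. Of the 21 tested, 2 were higher than in Ctrl, Angptl4 (log2 1.75, edgeR adjusted p = 0.00661) and Pdk4 (2.66, adjusted p = 0.00339). A further 2 were lower, Sgk1 (-1.25, adjusted p = 0.0206) and Dusp1 (-3.60, adjusted p = 0.0196), a phosphatase gene whose exons overlap those of Ergic1. Dusp1 held 10.9 ± 6.92 CPM (n = 3) in Ctrl and 0.829 ± 0.746 CPM in Vehicle. Its lowest Vehicle value, 0.231 CPM, was below the floor of 12 counts (0.392 to 0.709 CPM in Vehicle), so the size of its fall is uncertain. The median of the 21 was -0.08, and of all genes 0.447% were higher and 0.352% lower. The call of Sgk1 was lost without Ctrl 1, Ctrl 2 or Vehicle 6, and that of Dusp1 without Ctrl 1 or Ctrl 3. Both were lost with limma on FPKM in each of its 3 settings (adjusted p = 0.09 to 0.302 for Sgk1 and 0.0625 to 0.291 for Dusp1), and that of Sgk1 in the fit of all 12 libraries (adjusted p = 0.354). Tsc22d3 held 29.6 to 39.7 CPM in Ctrl and 28 to 34 CPM in Vehicle, with overlapping groups (log2 -0.13, SE 0.138, edgeR adjusted p = 0.798).

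Genes for making, converting and exporting the hormone could be tested for 10 of 19. In CRS none passed edgeR (1 under 0.05 before adjustment, 1 higher with DESeq2). In CORT 2 passed, beside 8.13% of all genes. Nr5a2 (LRH-1), a nuclear receptor that drives intestinal steroid synthesis, rose from 51.5 ± 6.75 to 109 ± 3.50 CPM (log2 1.06, SE 0.103, edgeR adjusted p = 5.86e-04). The exporter gene Abcb1a (P-glycoprotein) fell from 33.6 ± 5.02 to 18.5 ± 5.27 CPM (log2 -0.88, SE 0.198, edgeR adjusted p = 0.026), a call lost when any of Vehicle 3, Vehicle 6, CORT 2 or CORT 5 was left out, and in the fit of all 12 libraries (adjusted p = 0.0765). Cyp11b1, which makes corticosterone from its precursor, was at 0 counts in every library, and Cyp11a1, which starts the pathway, did not exceed 0.860 CPM.

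Of 18 receptor co-regulators, none passed in CRS (edgeR, 1 under 0.05 before adjustment, none with DESeq2), and 1 passed in CORT, beside 8.13% of all genes. Tbl1xr1, part of the NCoR corepressor complex, rose there from 53.3 ± 3.04 to 83.9 ± 3.31 CPM (log2 0.63, SE 0.0749, edgeR adjusted p = 0.0014). On FPKM, with limma, its change was 0.33 to 0.36 and did not pass (adjusted p = 0.0595 to 0.0879). The other FKBP genes, 10 tested in CRS and 11 in CORT, gave no call with edgeR or DESeq2 (0 and 1 under 0.05 before adjustment). Earlier work cited by the study describes FKBP5 as binding both AKT and the phosphatase PHLPP, which helps PHLPP to dephosphorylate AKT. Of 8 genes for AKT and its phosphatases and kinases, 7 were tested. None passed edgeR in either treatment (2 under 0.05 before adjustment in each, none in CRS and 1 lower in CORT with DESeq2). Phlpp1 held 59.0 to 75.2 CPM in Vehicle and 57.2 to 62.9 CPM in CORT, with overlapping groups (log2 -0.20, SE 0.103, edgeR adjusted p = 0.296). Akt1 lay below its control without overlap in CRS (log2 -0.21, SE 0.0788, edgeR adjusted p = 0.228) and in CORT (-0.22, SE 0.0714, adjusted p = 0.0986). Akt2 did so in CORT only (-0.26, SE 0.0893, edgeR adjusted p = 0.114). Groups did not overlap for 20.4% of all genes in CRS and 28.7% in CORT. Of the 7 genes, 2 had positive changes in CRS and 3 in CORT. Of the androgen, progesterone and estrogen receptor genes, none could be tested in CRS and 2 in CORT, with no call by edgeR or DESeq2 (0 under 0.05 before adjustment).

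The genes most like Fkbp5 over the 12 libraries were found by the root mean square difference of centered log2 CPM among 14463 genes. They were Tfcp2l1, a transcription factor (0.45, against an SD of 1.45 for Fkbp5 itself), Klf15 (0.50), E230001N04Rik (0.57), Gm15889 (0.63) and Hpgd, which degrades prostaglandins (0.63). Tfcp2l1 held 6.61 ± 4.13 CPM (n = 3) in Ctrl, 24.1 ± 2.79 in CRS, 14.1 ± 3.65 in Vehicle and 131 ± 34 in CORT, the order of Fkbp5. Hpgd, at 42.4 ± 2.53 CPM in Ctrl and 38.7 ± 1.89 CPM in Vehicle, lacked the rise of Fkbp5 from Ctrl to Vehicle. For Hsp90aa1, whose SD was 0.18, the nearest were Rnf220, l7Rn6, Gfer, Asna1 and the Hsp90 co-chaperone Nudc, at 0.08 to 0.09. Nudc was spread most in CRS, at 155 to 223 CPM against 181 to 188 CPM in Ctrl.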

How the data were processed

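RNA of sorted ISCs was measured in 12 libraries, 3 per group, and each library was assigned by its label. The submitters' processing notes name HISAT2 2.2.1, StringTie 2.2.1 and mm10, whereas the methods of the study name HISAT2 2.0.5, featureCounts 1.5.0-p3 and DESeq2 1.20.0. The authors deposited estimated counts per gene, not divided by depth (about 75 covered bases per count, so that a 150-base read pair gives 4 counts), and FPKM per gene and library. Strand was not stated. The authors also deposited coverage, a signal from which only the size of a count was worked out. Counts were rounded and tested with edgeR 4.0.16 in R 4.3.3 (quasi-likelihood F-test, TMM, filterByExpr, Benjamini-Hochberg adjustment over all genes tested), on the 6 libraries of a comparison or the 12 of the interaction. The SE was the absolute log2 change divided by the square root of F. Ratios of FPKM were compared with exact two-sided permutation tests (9 comparisons, 3 against 3, smallest p 0.1, so no adjusted p could pass). Alternatives were DESeq2 1.42.0, limma 3.58.1 on log2(FPKM + 1) and log2(FPKM + 0.1), other scalings and filters, a fit of all libraries, and leaving out each library. In simulated counts with known changes, edgeR recovered 82% of genes changed by 1 log2 unit in the CRS comparison (13534 genes) and 78% in the CORT comparison (14463 genes). Of its calls there, 5.7% and 2.2% were false. The simulation gave every gene the same spread and changed no gene of low level, so recovery in the real counts may be lower. No column was left without a sample (0). For 126 repeated symbols the gene ID of highest mean count was taken. The 10 genes and the lists were chosen with earlier results of these data known. The genes named were all members, at most 6 passing genes per list and comparison by adjusted p, and the 5 most similar to Fkbp5 and Hsp90aa1. Genes outside this rule are Cebpb, Phlpp1, Akt1, Akt2, Cyp11b1, Cyp11a1, Mt1, Mt2, Bcl6 and the markers Lgr5, Olfm4 and Ascl2, named after their values were seen. Promoter windows were from RefSeq, gene positions from the files and GENCODE.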

Additional observations from a re-analysis of the deposited data

Results flagged for a closer look

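Of the 21 tested targets of the receptor, 4 passed the interaction test over the 12 libraries (edgeR quasi-likelihood, CRS minus Ctrl, minus CORT minus Vehicle). Over all genes, 0.388% of 14415 passed it. Fkbp5 did not pass it (log2 -0.71, SE 0.187, adjusted p = 0.114) but passed with DESeq2 (adjusted p = 0.0155). The metallothionein genes Mt1 and Mt2 had interactions of -1.13 (adjusted p = 0.0267) and -2.31 (adjusted p = 0.0139). Mt2 changed by 0.17 in CRS (adjusted p = 0.717) and rose by 2.48 in CORT (adjusted p = 8.27e-04). The transcriptional repressor gene Bcl6 had an interaction of -2.36 (adjusted p = 0.0173), at -0.53 in CRS (adjusted p = 0.301) and 1.83 in CORT (adjusted p = 0.00313). Glutamine synthetase Glul had -1.27 (adjusted p = 0.00747), with 0.83 in CRS and 2.10 in CORT, both past the test. Leaving out single libraries ended the call of Mt1 (without Ctrl 1, Ctrl 2, CRS 1+2, Vehicle 5 or CORT 4, adjusted p = 0.0562 to 0.0881), of Mt2 (without Ctrl 2, CRS 1+2 or CORT 4, 0.0504 to 0.0521) and of Bcl6 (without Ctrl 1, Ctrl 2, CRS 1+2 or CORT 4, 0.0521 to 0.064), and that of Glul in no case. With limma on FPKM Mt1 did not pass in any of 3 settings, and none of the 4 passed without a filter. No library of a group was tested for standing apart, since the groups hold 3 libraries.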

How the results depend on the processing

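The rise of Fkbp5 kept its direction and its call in CRS and in CORT under every alternative run, at log2 1.57 to 1.80 and 2.29 to 2.51. In Vehicle against Ctrl it ranged from 1.34 to 1.55 and was past the threshold except with limma on log2(FPKM + 1) without a filter (1.37, adjusted p = 0.128), where 0 members and 0 genes passed. That setting tests many genes at or near 0. The interaction of Fkbp5 passed with DESeq2 only (-0.697, 1 member). Nr3c1 in CORT stayed between -0.42 and -0.34. No paired analysis was possible because the groups compared share at most 1 replicate number.

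Genes past the adjusted p in CRS against Ctrl numbered 260, and 46 with no filter, 557 with DESeq2, 510 in the fit of all 12 libraries, and 88, 90 and 27 with limma on log2(FPKM + 1), on log2(FPKM + 0.1) and without a filter. With 2-fold as well they numbered 103, and 32, 173, 44, 51 and 18 with no filter, DESeq2 and the 3 limma settings. In CORT against Vehicle the count was 1192 and fell to 561 with unfiltered limma, and with 2-fold it was 274, against 159 with limma on log2(FPKM + 1) and 107 unfiltered. In Vehicle against Ctrl the count was 109, and 297 with DESeq2 and 34 and 33 with filtered limma, and with 2-fold it was 49, against 87, 20 and 22. The interaction count was 56, and 386 with DESeq2 and 25, 24 and 17 with limma. The share of higher genes among its calls was 50% with TMM and 62% without scaling factors. The causes were not tested.

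Leaving out each library in turn gave 56 to 849 genes in CRS against Ctrl (36 to 278 with 2-fold, 1 to 3 members), 503 to 1003 in CORT against Vehicle (178 to 268, 1 to 3 members), 20 to 169 in Vehicle against Ctrl (17 to 103, 1 to 2 members) and 12 to 241 for the interaction.

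Every value that turned sign belonged to a change that had not passed. With limma, Nr3c1 in CRS became 0.0221, 0.0228 and 0.0221 and Nr3c2 0.00289, 0.00924 and 0.00289. Interactions turned to 0.00946 (DESeq2 size factors), 0.0183 (no scaling factors), 0.00218 (at least 10 counts), 0.00623 (DESeq2) and 0.0108 (limma, pseudocount 0.1) for Hsd11b2, to -0.00744 for Fkbp4 and -0.0172 for Ptges3 without a filter, and to 0.0457 in each limma setting for Hsp90ab1. With 1 library left out, the ranges that crossed 0 were -0.0868 to 0.0148 (Nr3c1), -0.181 to 0.125 (Nr3c2), -0.227 to 0.0771 (Hsp90aa1) and -0.341 to 0.0241 (Stip1) in CRS, -0.0104 to 0.175 (Nr3c2) in CORT and -0.0413 to 0.0339 (Hsp90ab1) in Vehicle. For the interaction they were -0.261 to 0.0438 (Nr3c2), -0.183 to 0.123 (Fkbp4), -0.107 to 0.235 (Hsp90aa1), -0.112 to 0.0686 (Hsp90ab1), -0.107 to 0.0804 (Ptges3), -0.14 to 0.227 (Stip1) and -0.25 to 0.182 (Hsd11b2). With 3 libraries a group and a biological coefficient of variation of 18.5% in CRS and 19.2% in CORT, changes of the size seen in the chaperones (up to 0.25 on the log2 scale) were below those the simulation covered.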
